A study of Macaca fascicularis with 16 samples.

Results

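Integrins, laminins, cadherins and claudins hold cells to the matrix and to each other, and 57 of their genes, read by 107 of the 52865 probe sets on the array, were described in mammary tissue of cynomolgus macaques under 4 treatments. The members were the probe sets whose only annotated symbol was ITGA or ITGB (integrin chains), LAMA, LAMB or LAMC (laminin chains), CDH (cadherins) or CLDN (claudins) followed by a member's number or letter. Left out were 9 other genes of the 4 families (ITGA6, ITGB4, LAMA3, CDH3, CLDN3, CLDN4, CLDN5, CLDN7 and CLDN8, with 21 probe sets). The rule reads symbols, not signals. The animals were postmenopausal females without ovaries, 4 in each group, and each gave 1 array. They had received tibolone at 0.2 mg/kg (a synthetic steroid), CEE+MPA (conjugated equine estrogens at 0.042 mg/kg with medroxyprogesterone acetate, a progestin, at 0.167 mg/kg), CEE alone at 0.042 mg/kg, or no treatment (control). Ages and the length of treatment are not given in the labels. The study set out to compare responses to hormone replacement.

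Laminins are trimers of an alpha, a beta and a gamma chain that build the sheet of basement membrane under epithelium and around vessels, smooth muscle, nerve and fat cells. Integrins are pairs of an alpha and a beta chain that bind laminins, collagens and other matrix proteins, or, on leukocytes, proteins of other cells, and link them to the actin skeleton. Cadherins join neighbouring cells through catenins, and claudins seal the space between epithelial cells at tight junctions. In the mammary gland a layer of contractile myoepithelial cells lies between the luminal epithelium and the basement membrane.

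Values were linear signals with the same trimmed mean on every array, so that a gene's levels can be compared between arrays but not with those of another gene. Tests used log2(signal + 16) in a limma model with the 4 group means, with p-values adjusted over the 28704 tested probe sets of each comparison. Each array carries the number of its own animal. On 4 arrays the markers of skeletal muscle, a tissue outside the gland, were high (list mean over 1): tibolone replicates 2 and 3, CEE+MPA replicate 1 and control replicate 1. The bacterial spike-in controls dap and thr split the arrays into a low set of 6 (2 arrays each of CEE+MPA, CEE and control) and a high set of 10 with the others, among them all tibolone arrays. The sets also differed in the 3' minus 5' log2 signal of GAPDH, a sign of RNA quality, which was 0.04 to 0.26 in the low set and 0.58 to 0.92 in 9 of the 10 arrays of the high set (0.11 in tibolone replicate 2). The labels do not name these sets, and what made them differ was not tested. Results with the set as a block and within each set are given below. The effects of CEE and of CEE+MPA were also compared between the sets. Luminal keratin signals were present on every array, with KRT19 at 10401 to 24356, KRT18 at 380.0 to 958 and the epithelial adhesion protein EPCAM at 963 to 3548.

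Probe sets with signals over 60.2 (the median of all deposited values) on 4 or more of the 16 arrays entered the tests. By this filter 50 probe sets of 35 genes were tested. They covered 18 of 18 integrin genes, 7 of 8 laminin genes, 6 of 19 cadherin genes and 4 of 12 claudin genes. The genes that were not tested had their highest signal on any array between 11.9 (CDH12) and 105.7 (CLDN14), and 20 of the 22 never exceeded 60.2 on any array. Among them was CDH1, the cadherin of epithelial junctions, whose probe set had a mean signal of 29.7 and a highest signal of 57.5. Whether this probe set reads the cynomolgus transcript was not tested. CDH15, a cadherin of muscle precursors, reached 80.1 on its highest array, and CLDN10 reached 34.4. LAMA5, CDH2, CLDN11 and CLDN12 had no probe set with this symbol alone and were not analysed here. The arrays' probes were designed for rhesus macaque.

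**Figure D1:**
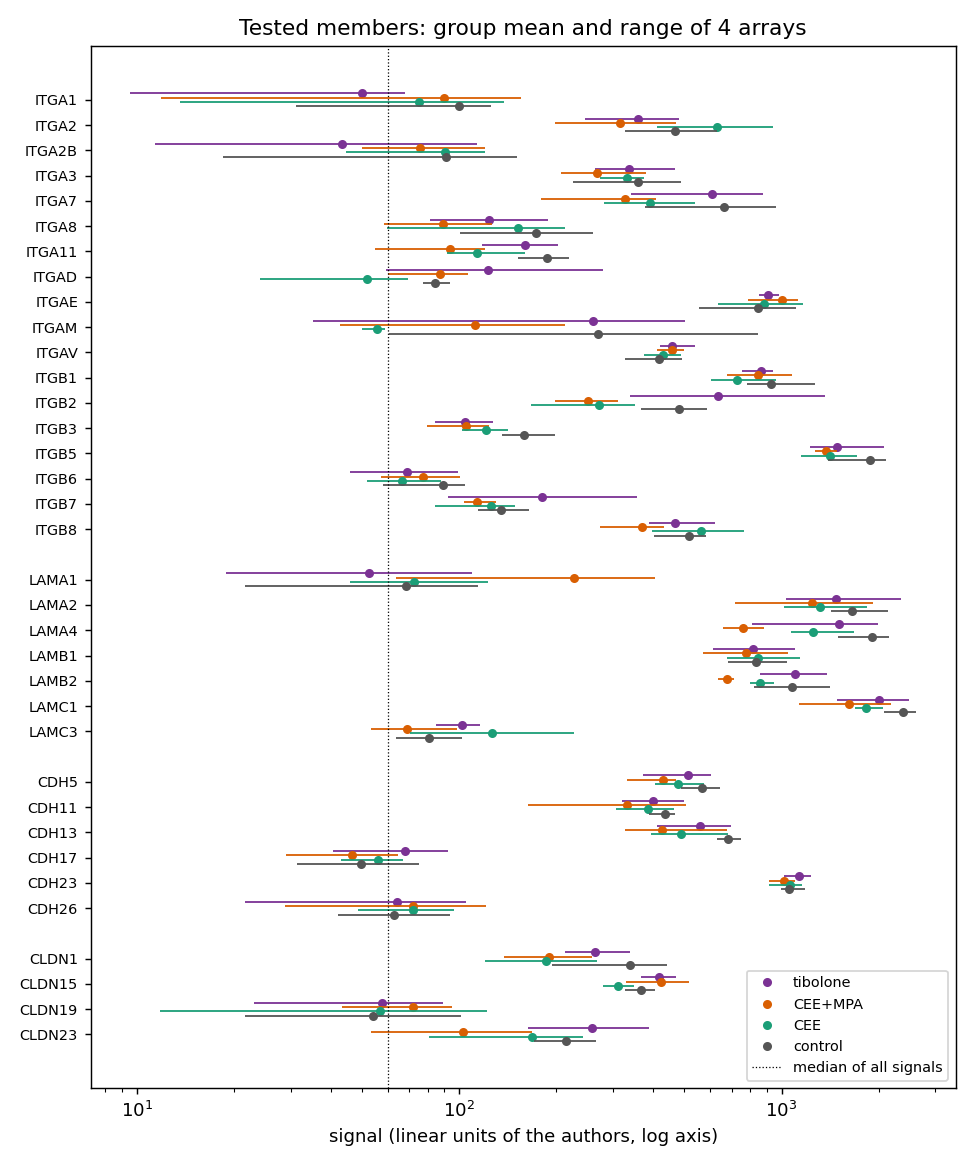
Signal of the 35 tested genes on a log axis, with the mean (point) and the range (line) of 4 arrays for tibolone, CEE+MPA, CEE and control. LAMA4 in CEE+MPA (657 to 883) lies below LAMA4 in CEE (1070.2 to 1681) and in control (1500.1 to 2155), and ITGAM has wide ranges in tibolone, CEE+MPA and control.

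Members differed in 2 of the 6 comparisons. In CEE+MPA against control, LAMA4, LAMB2 and ITGA11 fell and no member rose, which is 3 of 35 genes (of all 10452 tested genes 7.69% were called, 4.96% as lower and 2.74% as higher). In tibolone against CEE+MPA, LAMA4 and LAMB2 were higher and LAMA1 was lower, also 3 of 35 (of all tested genes 7.35% were called, 3.98% as higher and 3.37% as lower). All tibolone arrays lie in the high spike-in set and the CEE+MPA arrays lie 2 in each, and with the set as a block none of these 3 members was called (2.56% of all tested probe sets were). Neither share stands far from the background of its comparison, so the counts say nothing particular about these families. The CEE+MPA arrays enter both comparisons, so the values of LAMA4 and LAMB2 in them are not independent of each other. No member was called in CEE against control (0.0574% of all tested genes), tibolone against control (0.00957%), CEE+MPA against CEE (0.0287%) or tibolone against CEE (0.0%). By limma's unadjusted p under 0.05, 6, 1, 6 and 5 of the 35 genes passed in these 4 comparisons, against 14.2%, 4.83%, 7.58% and 13.0% of all tested genes. In the comparisons with called members, 15 of 35 passed it in CEE+MPA against control (28.3% of all tested genes) and 7 in tibolone against CEE+MPA (28.0%).

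The direction of the log2 fold changes leaned one way in CEE+MPA. Against control, 28 of 35 members lay below 0 (80.0%, against 48.6% of all tested genes), with a median of -0.40 (all genes 0.01). Their median was -0.34 with arrays centred on their medians and -0.36 with quantile normalization. It was -0.27 within the low and -0.49 within the high spike-in set, and -0.29 without the 4 arrays of high skeletal muscle signal. Between tibolone and CEE+MPA, 25 of 35 members lay above 0, with a median of 0.27 (all genes 0.01), and 0.16 with median centring, a scaling that shifted the median of all probe sets by -0.11. It was 0.12 without the 4 arrays of high skeletal muscle signal, 0.16 without tibolone replicate 2 and 0.17 without tibolone replicate 3. In CEE against control the median was -0.25, with 24 of 35 below 0, and in tibolone against control it was -0.13, with 22 of 35 below 0 (-0.08 without control replicate 2 and -0.22 without tibolone replicate 3). In CEE+MPA against CEE it was -0.14, with -0.07 without CEE+MPA replicate 2 and 0.04 within the low spike-in set. In tibolone against CEE it was 0.10, with -0.04 under the skeletal muscle covariate and -0.0035 without the 4 arrays of high skeletal muscle signal, so its sign was not stable. The share of lower calls among all called probe sets also moved with the scaling: it was 69.2% in CEE+MPA against control and 50.2% with median centring, and 40.3% in tibolone against CEE+MPA and 72.4% with median centring.

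**Figure D2:**
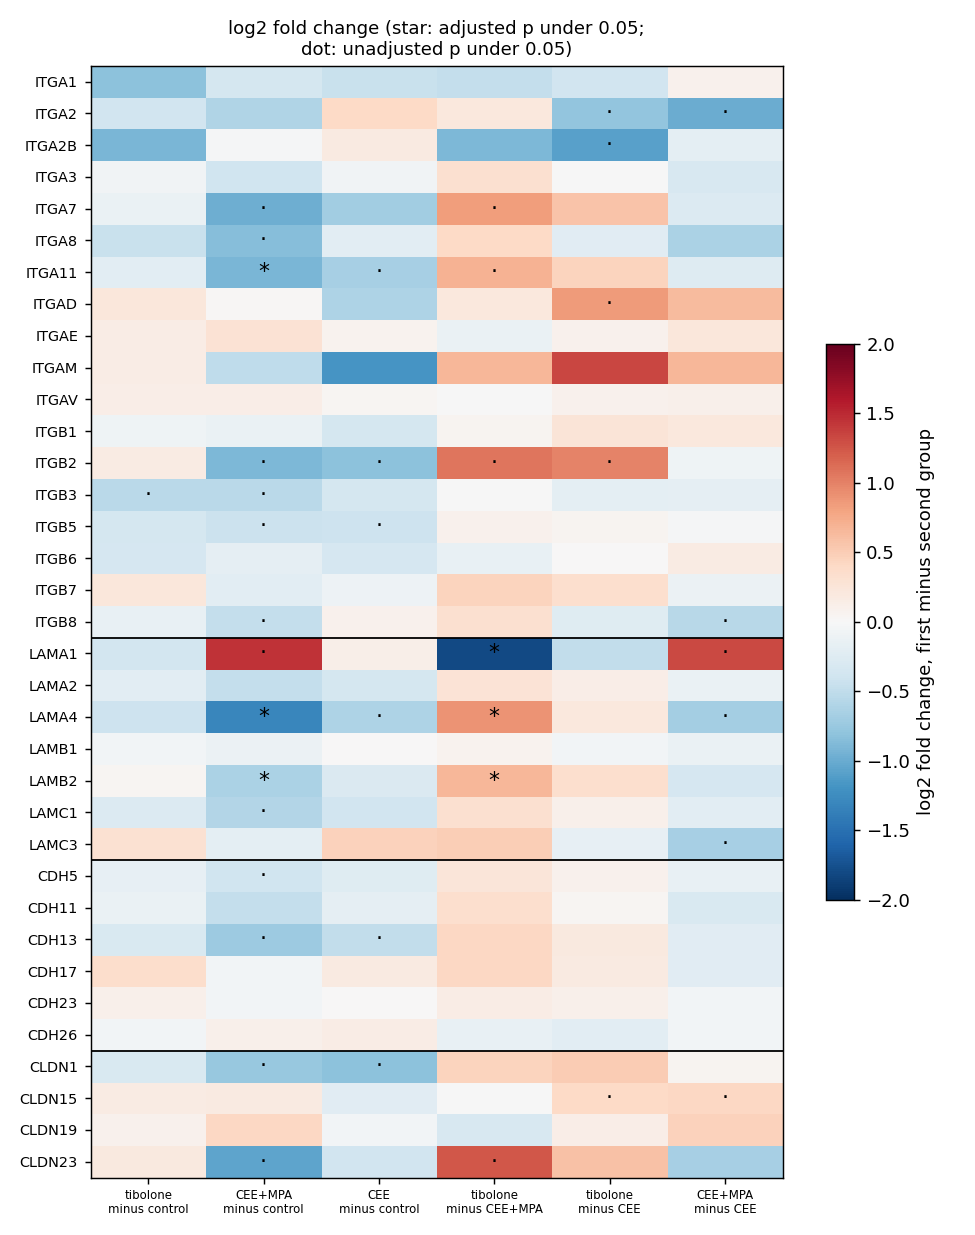
Log2 fold change of the 35 tested genes (rows) in the 6 comparisons (columns), the first-named group minus the second; red is higher and blue lower in the first. Stars mark adjusted p under 0.05 and stand on LAMA4, LAMB2 and ITGA11 for CEE+MPA minus control and on LAMA4, LAMB2 and LAMA1 for tibolone minus CEE+MPA; dots mark unadjusted p under 0.05.

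LAMA4, the alpha chain of the laminin of blood vessels and also of the sheath of fat and smooth muscle cells, fell in CEE+MPA. Its signal (probe set MmugDNA.16810.1.S1_at) was 1265, 1983, 1989 and 811 in tibolone, 727, 883, 776 and 657 in CEE+MPA, 1070.2, 1136, 1681 and 1110.0 in CEE and 2065, 1910.2, 2155 and 1500.1 in control. All CEE+MPA arrays were below all CEE and all control arrays, CEE lay mostly in between, and tibolone spread over the whole range, with 1 array as low as CEE+MPA. The log2 fold change of CEE+MPA against control was -1.30 ± 0.25 (SE, limma adjusted p = 0.00995). It was -1.36 ± 0.37 within the low spike-in set and -1.25 ± 0.37 within the high set, where the adjusted p were 0.325 and 0.068 with 2 CEE+MPA and 2 control arrays each. In mammary tissue as a whole, fewer cells of a type and less RNA per cell cannot be told apart. Against CEE alone the difference was -0.69 ± 0.25 (limma unadjusted p = 0.0133, adjusted p = 0.507), and CEE against control gave -0.62 ± 0.25 (limma adjusted p = 0.33).

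Tibolone was higher than CEE+MPA in LAMA4, by 0.89 ± 0.25 (limma adjusted p = 0.0439), with overlapping arrays. The 2 tibolone arrays with the highest LAMA4 were replicates 2 and 3, which were also those with skeletal muscle signal. Without the 4 arrays of high skeletal muscle signal the difference was 0.40 ± 0.26 (limma adjusted p = 0.646). In CEE+MPA against control it was then -1.24 ± 0.23 (limma adjusted p = 0.02). That setting keeps only tibolone replicates 1 and 4. In it 0 of 28704 probe sets were called in tibolone against CEE+MPA, so the lost call says nothing particular about LAMA4. Within the high spike-in set, tibolone against CEE+MPA gave 0.77 ± 0.32 (limma adjusted p = 0.188).

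LAMB2, a beta chain found in the walls of vessels and at nerve-muscle contacts, was also lowest in CEE+MPA. Its signal (probe set MmugDNA.19311.1.S1_at) was 860.3, 1380.2, 1183 and 988 in tibolone, 636, 666, 706 and 709.8 in CEE+MPA, 806, 797, 889.6 and 948 in CEE and 1050.3, 1411, 1026 and 821 in control. The 4 CEE+MPA arrays lay close together and below every other array of the study. Against control LAMB2 fell, at -0.63 ± 0.17 on the log2 scale (limma adjusted p = 0.0384), with -0.44 ± 0.22 within the low and -0.81 ± 0.22 within the high spike-in set (adjusted p = 0.561 and 0.0563). Tibolone was higher than CEE+MPA by 0.67 ± 0.17 (limma adjusted p = 0.0336). Without the 4 arrays of high skeletal muscle signal these were -0.60 ± 0.19 (limma adjusted p = 0.0976) and 0.40 ± 0.21 (adjusted p = 0.551). In that setting 0 of 28704 probe sets were called in tibolone against CEE+MPA. Both calls were near the threshold: LAMB2 against control was lost without any 1 of 7 of the 8 arrays compared, and kept only without control replicate 4.

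LAMA1, an alpha chain best known from embryonic basement membranes and a few adult epithelia, ran the other way. Its signal (probe set MmugDNA.39626.1.S1_at) was 109.7, 22.7, 18.9 and 58.5 in tibolone, 227, 216, 404 and 63.5 in CEE+MPA, 47.8, 73.3, 123 and 45.9 in CEE and 56.0, 21.7, 114 and 81.7 in control. CEE+MPA replicates 1 to 3 were the highest arrays of the study and replicate 4 lay within the range of the other groups. LAMA1 was lower in tibolone than in CEE+MPA, at -1.80 ± 0.51 on the log2 scale (limma adjusted p = 0.0469). CEE+MPA against control gave 1.44 ± 0.51 (limma adjusted p = 0.0974), and CEE+MPA against CEE gave 1.32 ± 0.51 (adjusted p = 0.539). Without the 4 arrays of high skeletal muscle signal, tibolone against CEE+MPA gave -1.03 ± 0.66 (limma adjusted p = 0.636). In that setting 0 of 28704 probe sets were called in this comparison. Within the high spike-in set tibolone against CEE+MPA gave -2.39 ± 0.57 (limma adjusted p = 0.0545).

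Of the other laminin chains, none was called in any comparison. LAMC1, the gamma chain of most laminins, averaged 2003 ± 494 in tibolone, 1623 ± 488 in CEE+MPA, 1822 ± 174 in CEE and 2377 ± 279 in control (SD, n = 4 each), and its difference between CEE+MPA and control was -0.59 ± 0.21 (limma adjusted p = 0.0981). LAMA2, the alpha chain of muscle and nerve, gave -0.48 ± 0.30 there (limma adjusted p = 0.345), with CEE+MPA arrays at 715 to 1923 and control arrays at 1426 to 2146. A second LAMA2 probe set, also not called, gave -0.74 there. It gave -0.97 in CEE+MPA against CEE (-0.14 in the first), with CEE+MPA arrays (298 to 606) below all CEE arrays (612 to 1321). In tibolone against CEE+MPA it gave 0.96 (0.27 in the first). In CEE against control the 2 probe sets had opposite signs (-0.35 in the first and 0.23). LAMB1, a beta chain of many tissues, averaged 815 ± 209.8, 773 ± 204 and 847 ± 219 in tibolone, CEE+MPA and CEE and 836 ± 169.9 in control. Its group means thus differed by less than the spread within each group. LAMC3, a gamma chain, was low, with signals of 84.6 to 116 in tibolone, 53.4 to 98.3 in CEE+MPA, 70.4 to 227 in CEE and 63.8 to 102 in control. Over the 7 tested laminin genes, 6 lay below 0 in CEE+MPA against control, with a median of -0.48, and 6 above 0 in tibolone against CEE+MPA, with a median of 0.32.

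**Figure D3:**
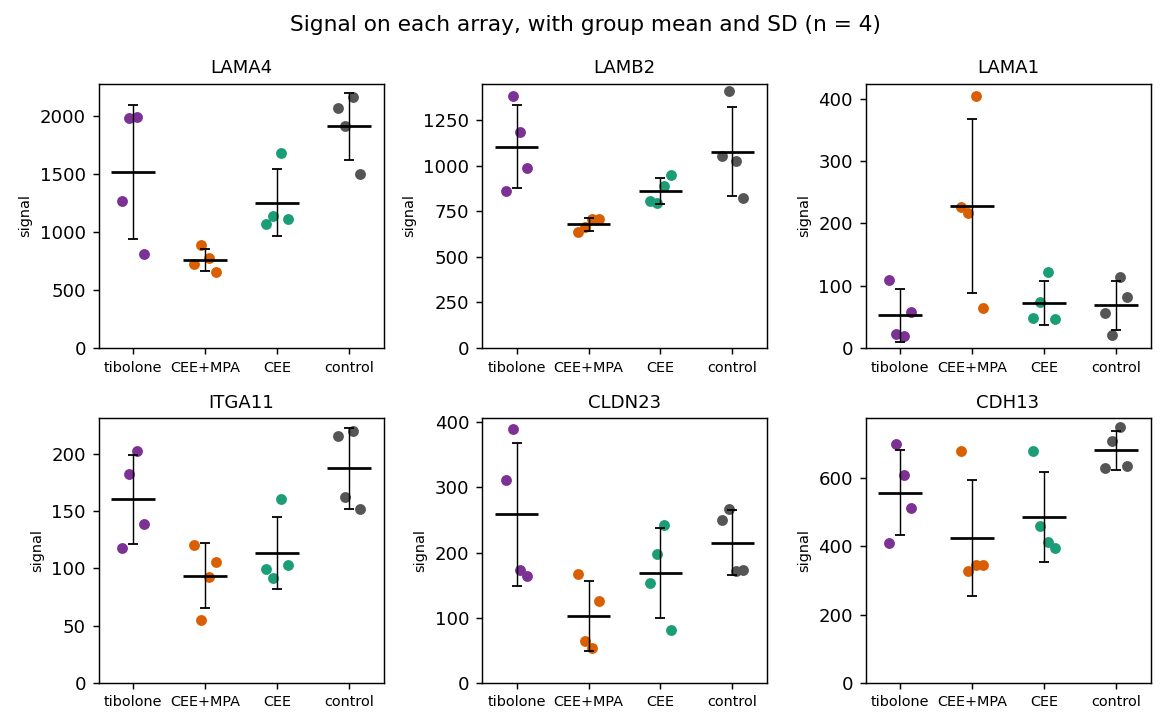
Signal on each of the 16 arrays (points, linear axis from 0) for LAMA4, LAMB2, LAMA1, ITGA11, CLDN23 and CDH13, with the mean (wide line) and SD (bar) of the 4 arrays in tibolone, CEE+MPA, CEE and control. LAMB2 in CEE+MPA spans 636 to 709.8, under all other arrays, whereas LAMA1 is highest in 3 of 4 CEE+MPA arrays.

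Among the integrins that bind collagen, ITGA11, a collagen receptor of fibroblasts, fell in CEE+MPA. Its signal (probe set MmugDNA.21387.1.S1_at) was 118, 183, 202 and 139 in tibolone, 121, 54.8, 92.7 and 106 in CEE+MPA, 99.3, 91.6, 160.2 and 103 in CEE and 215, 162, 220.0 and 152 in control. Every CEE+MPA array lay below every control array, and tibolone overlapped with both. CEE+MPA against control was -0.92 ± 0.23 (limma adjusted p = 0.0287), with -0.63 ± 0.30 within the low and -1.21 ± 0.30 within the high spike-in set (adjusted p = 0.541 and 0.0406). Without the 4 arrays of high skeletal muscle signal it was -0.97 ± 0.25 (limma adjusted p = 0.0539). A second probe set of ITGA11 with lower signal gave -1.16 ± 0.50 (limma adjusted p = 0.168). CEE against control gave -0.66 ± 0.23 (limma adjusted p = 0.268) and tibolone against CEE+MPA 0.70 ± 0.23 (adjusted p = 0.0718).

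ITGA2, the collagen receptor chain of epithelium and platelets, had its highest mean in CEE. Its signal was 455, 482, 253 and 246 in tibolone, 386, 199, 205 and 472 in CEE+MPA, 486, 693, 409.6 and 941 in CEE and 502, 629, 405 and 327 in control, and all groups overlapped. CEE+MPA against CEE gave -0.99 ± 0.33 (limma unadjusted p = 0.00822, adjusted p = 0.468), the smallest p of any member gene in that comparison, and tibolone against CEE gave -0.78 ± 0.33 (adjusted p = 0.373). A second ITGA2 probe set gave -0.62 and -0.54 in these comparisons. ITGA1, a collagen receptor chain of smooth muscle and stroma, scattered from 9.53 to 155.6 and had no comparison with an unadjusted p under 0.05.

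The chains that bind laminin were ITGA3, an epithelial one, and ITGA7, the laminin receptor of skeletal and smooth muscle. ITGA7 signals were 476, 743, 876 and 342 in tibolone, 409, 364, 353 and 179 in CEE+MPA, 424, 319, 539 and 282 in CEE and 961, 775, 378 and 545 in control. All 4 groups overlapped. CEE+MPA against control was -0.97 ± 0.34 (limma adjusted p = 0.0935). Its other probe sets did not move alike: 1 gave -0.65 ± 0.21 (limma adjusted p = 0.0743), and the other gave 0.29 ± 0.14 (adjusted p = 0.213), with every CEE+MPA array (345 to 387) above every control array (275 to 318). The direction of ITGA7 thus depended on the probe set. ITGA3 gave -0.39 ± 0.24 there (limma adjusted p = 0.336), and its second probe set -0.82 ± 0.24 (adjusted p = 0.0571), with CEE+MPA arrays at 61.8 to 93.5 below control arrays at 128 to 179.7.

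ITGB1, the beta chain shared by the laminin and collagen receptors, held a similar level in all groups, with 862 ± 78.7 in tibolone, 846 ± 189.6 in CEE+MPA, 728 ± 167 in CEE and 930.3 ± 226 in control (SD, n = 4 each). ITGAV, the alpha chain of receptors for vitronectin and latent TGF-beta, ranged 1.65-fold over the 16 arrays, with 419 to 540.4 in tibolone, 412 to 499.9 in CEE+MPA, 376 to 486 in CEE and 327 to 491 in control. Neither had a comparison with an unadjusted p under 0.05.

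Of the beta chains that pair with ITGAV, ITGB3, which also forms the platelet receptor with ITGA2B, had its highest mean in control. Its signal was 84.4, 128, 118 and 87.9 in tibolone, 124, 79.5, 118 and 99.8 in CEE+MPA, 102, 142, 139 and 104 in CEE and 199, 164, 135 and 140.1 in control. All tibolone and all CEE+MPA arrays lay below all control arrays. The difference was -0.54 ± 0.18 for tibolone against control (limma unadjusted p = 0.00689, adjusted p = 0.822) and -0.54 ± 0.18 for CEE+MPA against control (adjusted p = 0.0759), and neither was called. ITGB5, a vitronectin receptor chain, showed -0.35 ± 0.19 (limma adjusted p = 0.913), -0.43 ± 0.19 (0.173) and -0.41 ± 0.19 (0.387) in tibolone, CEE+MPA and CEE against the same control arrays. ITGB8, whose pair with ITGAV activates TGF-beta, gave -0.56 ± 0.21 in CEE+MPA against CEE (limma adjusted p = 0.538). ITGB6, a chain of epithelial cells, stayed between 45.9 and 104.0, and ITGA2B, the platelet chain, between 11.4 and 151.4, with -0.92 ± 0.51 for tibolone against control (limma adjusted p = 0.913). ITGA8, a chain of smooth muscle and other mesenchyme that binds nephronectin, gave -0.84 ± 0.36 in CEE+MPA against control (limma adjusted p = 0.168).

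Of the leukocyte chains, ITGB2, ITGB7 and ITGAD were highest on tibolone replicate 3. ITGB2, the beta chain that all leukocytes share, had signals of 454, 389.7, 1361 and 339 in tibolone, 232, 311, 262 and 199 in CEE+MPA, 167, 257, 350.1 and 315 in CEE and 481, 586, 365 and 492 in control. CEE and CEE+MPA arrays lay below all control arrays, and all tibolone arrays lay above all CEE+MPA arrays. None of these passed in this probe set: the log2 differences were -0.81 ± 0.34 for CEE against control (limma adjusted p = 0.354), -0.90 ± 0.34 for CEE+MPA against control (adjusted p = 0.122), 0.99 ± 0.34 for tibolone against CEE (adjusted p = 0.296) and 1.07 ± 0.34 for tibolone against CEE+MPA (adjusted p = 0.071). The second ITGB2 probe set was called as higher in tibolone than in CEE+MPA, by 0.88 ± 0.25 (limma adjusted p = 0.0469), with tibolone arrays at 204 to 502 and CEE+MPA arrays at 127 to 167. Over probe sets, 4 of 50 were called in that comparison (6.34% of all tested probe sets). Tibolone replicate 3 had the highest signal of all 16 arrays for ITGB2, for ITGB7, a chain of gut-homing lymphocytes (356, other arrays 84.0 to 164), and for ITGAD, a myeloid partner of ITGB2 (279.6, other arrays 24.2 to 106.6). The same array had the highest mean of the B and plasma cell markers (0.75), through the B cell genes CD79B (1229, other arrays at most 146) and BANK1 (153), while the plasma cell gene JCHAIN was at its lowest there (4100.3). Its myeloid list mean was 0.54, and the part of these cells in the integrin signals was not tested. ITGAD in tibolone against CEE gave 0.84 ± 0.34 (limma adjusted p = 0.364). ITGAE, the chain by which lymphocytes hold to epithelial cadherin, had no comparison with an unadjusted p under 0.05, with 907 ± 58.8 in tibolone, 1006 ± 152 in CEE+MPA, 881 ± 269 in CEE and 845 ± 263 in control.

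ITGAM, the alpha chain of macrophages and neutrophils, was highest on the arrays with skeletal muscle signal. Its signal was 73.6, 433, 500.3 and 35.2 in tibolone, 213, 42.6, 116 and 78.9 in CEE+MPA, 58.8, 56.6, 49.9 and 57.6 in CEE and 843, 99.5, 75.5 and 60.4 in control. The 4 highest arrays, at 212.6 to 843, were the 4 with a skeletal muscle list mean over 1, on which the muscle myosin chain MYL1 read 1152 to 4018, against 1.58 to 349 on the other 12 arrays. Among the other 12 arrays, ITGAM correlated with the skeletal muscle list mean at Pearson r = 0.654 (permutation p = 0.0249, adjusted 0.0456) and Spearman rho = 0.608 (permutation p = 0.0409, adjusted 0.0643), and at r = 0.425 without the 2 most extreme arrays, so the relation there rests in part on those arrays. With the myeloid list over all 16 arrays it gave r = 0.496 (permutation p = 0.0464, adjusted 0.0729) and rho = 0.538 (permutation p = 0.0344, adjusted 0.0631), with r = 0.472 without 2 arrays, 0.335 after group means were subtracted, 0.0353 within the low spike-in set and 0.708 within the high set. Adjustment was over 11 relations, chosen after the data were seen. ITGA7, a muscle laminin receptor, gave r = -0.164 (permutation p = 0.604) and rho = 0.077 (permutation p = 0.815) with the skeletal muscle list over the same 12 arrays.

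**Figure D4:**
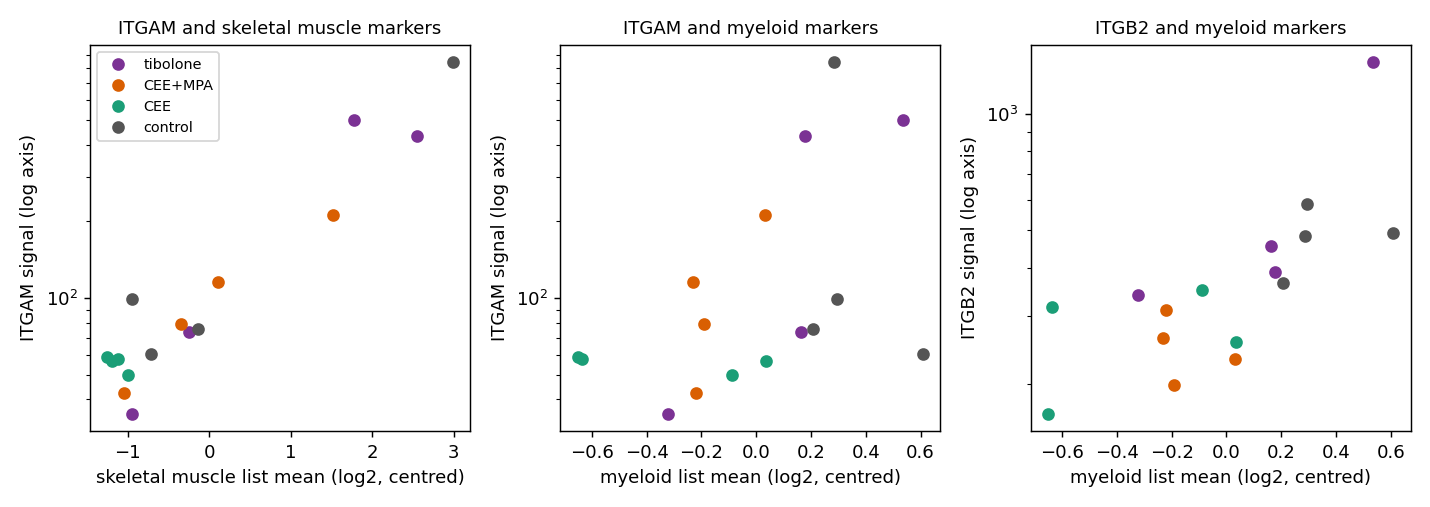
Signal of ITGAM against the skeletal muscle list mean (left) and the myeloid list mean (middle), and of ITGB2 against the myeloid list mean (right), 1 point per array, coloured by tibolone, CEE+MPA, CEE and control. List means average log2 values after each gene's own 16-array mean was subtracted, and signal axes are logarithmic. The ITGAM arrays at 212.6 to 843 are those with a skeletal muscle mean over 1, and the highest ITGB2 point is tibolone replicate 3 (1361).

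No cadherin passed with the probe set that stands for its gene. CDH13, a cadherin anchored by a lipid that binds adiponectin, came closest: its signal was 411, 699, 607 and 512 in tibolone, 678, 328, 346 and 346 in CEE+MPA, 680.0, 459.5, 413 and 395 in CEE and 629, 707, 749 and 636 in control. CEE+MPA replicate 1 lay within the control range, while replicates 2 to 4 lay close together and below every control array. The difference between CEE+MPA and control was -0.72 ± 0.23 (limma adjusted p = 0.0699), and CEE against control gave -0.50 ± 0.23 (adjusted p = 0.393). In the second CDH13 probe set CEE+MPA read 306, 226, 232 and 165 and control 401, 329.6, 384 and 363, without overlap, and this probe set was called as lower (-0.66 ± 0.17, limma adjusted p = 0.0355). Over probe sets, 4 of 50 were called as lower in CEE+MPA against control (6.34% of all tested probe sets were called).

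CDH5, the cadherin of endothelial junctions, read 372, 592, 604 and 479 in tibolone, 332, 448, 471 and 461 in CEE+MPA, 503, 404, 573 and 429.5 in CEE and 624, 643, 487 and 518 in control. All CEE+MPA arrays lay below all control arrays, but the difference of -0.40 ± 0.18 did not pass (limma adjusted p = 0.18). CDH11, a cadherin of mesenchyme, gave -0.47 ± 0.25 there (limma adjusted p = 0.27), with 1 CEE+MPA array at 163 and another at 506. CDH23, the cadherin of hair cell tip links in the ear, had a 1.35-fold range over the 16 arrays in the probe set that stands for it (1016 to 1233 in tibolone, 913 to 1104 in CEE+MPA, 913 to 1156 in CEE and 993 to 1180.0 in control). Its second tested probe set, at 8.95 to 81.5, had the opposite sign in 5 comparisons, with -0.59 against 0.10 in tibolone against control. CDH17, known from liver and intestine, stayed between 29.0 and 92.3 and CDH26 between 21.6 and 120.8, close to the filter on low signal.

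No claudin was called. CLDN23 had the largest differences of them: its signal was 311, 389, 173 and 164 in tibolone, 168, 64.03, 53.2 and 126 in CEE+MPA, 153, 197, 242 and 80.7 in CEE and 249.6, 266, 171 and 173 in control. All CEE+MPA arrays were below all control arrays, and 3 of the 4 were below all tibolone arrays. CEE+MPA against control gave -1.05 ± 0.36 (limma adjusted p = 0.0873) and tibolone against CEE+MPA 1.24 ± 0.36 (adjusted p = 0.0513). Within the high spike-in set both passed, as did LAMC1 and CLDN1 (lower) and LAMA1 (higher) in CEE+MPA against control. LAMA4 and LAMB2 did not pass there. The high-set minus low-set difference in CEE+MPA against control was -1.66 for CLDN23, -0.99 for CLDN1, -0.76 for LAMC1 and 2.28 for LAMA1. Their limma unadjusted p were 0.0195, 0.0324, 0.0518 and 0.0308, and none passed after adjustment (adjusted p = 0.82 to 0.83). In these genes the change was thus larger in the high set than in the low set.

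CLDN1, a sealing claudin of skin and glandular epithelium, read 339, 213, 275 and 227 in tibolone, 259, 138, 185 and 179 in CEE+MPA, 222, 267, 121 and 137 in CEE and 366, 443, 349 and 194 in control. Control replicate 4 lay among the treated arrays and the other 3 control arrays lay above all of them. CEE against control gave -0.81 ± 0.27 (limma unadjusted p = 0.00881, adjusted p = 0.262), the smallest p of any member gene in that comparison, and CEE+MPA against control gave -0.75 ± 0.27 (adjusted p = 0.104). A second CLDN1 probe set gave -0.90 and -0.70 in these comparisons (limma adjusted p = 0.198 and 0.104). In CEE against control the fall was larger in the high spike-in set than in the low set. The high-set minus low-set difference was -1.44 (limma unadjusted p = 0.00415, adjusted p = 0.937) and -0.97 in the second probe set (unadjusted p = 0.0631, adjusted p = 0.937). Over the alternative settings the fold change of CLDN1 in CEE against control ran from -1.54 to -0.09. CLDN15, a claudin that forms pores for cations in the intestine, was lowest in CEE, with 366, 372, 470.3 and 455 in tibolone, 358, 515, 492 and 329 in CEE+MPA, 291, 325, 279 and 348 in CEE and 369, 368, 404 and 327 in control. All tibolone arrays lay above all CEE arrays, with 0.40 ± 0.16 (limma adjusted p = 0.346), and CEE+MPA against CEE gave 0.41 ± 0.16 (adjusted p = 0.532). CLDN19, a claudin of kidney and nerve, scattered between 11.8 and 122.1 in all groups.

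Of the 35 genes, 7 had every CEE+MPA array below every control array: LAMA4, LAMB2, ITGA11, ITGB2, ITGB3, CDH5 and CLDN23. That is 20.0%, against 10.5% of all tested genes that lay wholly lower, and none lay wholly higher, against 9.04%; in either direction it is 20.0% against 19.5%, so the total was at its background. In CEE against control 4 lay wholly lower (11.4%, against 5.21%), namely ITGAD, ITGAM, ITGB2 and LAMC1, and in CEE+MPA against CEE LAMA4 and LAMB2 did (5.71%, against 3.18%). ITGB3 lay wholly lower in tibolone against control (1 of 35, against 1.3% of all tested genes), and CLDN15 wholly higher in tibolone against CEE (1 of 35, against 2.86%). Between tibolone and CEE+MPA, LAMB2 and ITGB2 lay wholly higher in tibolone (5.71%, against 7.78%). In either direction, the shares of all tested genes were 10.5% in CEE against control, 5.61% in CEE+MPA against CEE, 3.11% in tibolone against control, 5.88% in tibolone against CEE and 14.8% in tibolone against CEE+MPA. The control arrays enter 3 of these comparisons and the CEE+MPA arrays 3. Where a gene had several tested probe sets, they could differ in sign: of 13 such genes, 2 had both signs in CEE+MPA against control and 3 in tibolone against CEE+MPA, and 5 in tibolone against control.

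Leaving out any 1 of the 8 arrays kept LAMA4 called in CEE+MPA against control, while LAMB2 and ITGA11 were lost with several of them. LAMA4 was the only member called without control replicate 1, 2 or 3 or without CEE+MPA replicate 2 or 3. In tibolone against CEE+MPA no member was called without tibolone replicate 2 or 3 or CEE+MPA replicate 2 or 3, whereas 5 were called without tibolone replicate 4 (LAMA4, LAMB2, ITGB2 and CLDN23 higher, LAMA1 lower). These counts moved with those over all probe sets, of which 0.728% were called without tibolone replicate 2, 1.03% without replicate 3 and 11.6% without replicate 4, and 2.93% and 1.44% without CEE+MPA replicates 2 and 3.

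**Figure D5:**
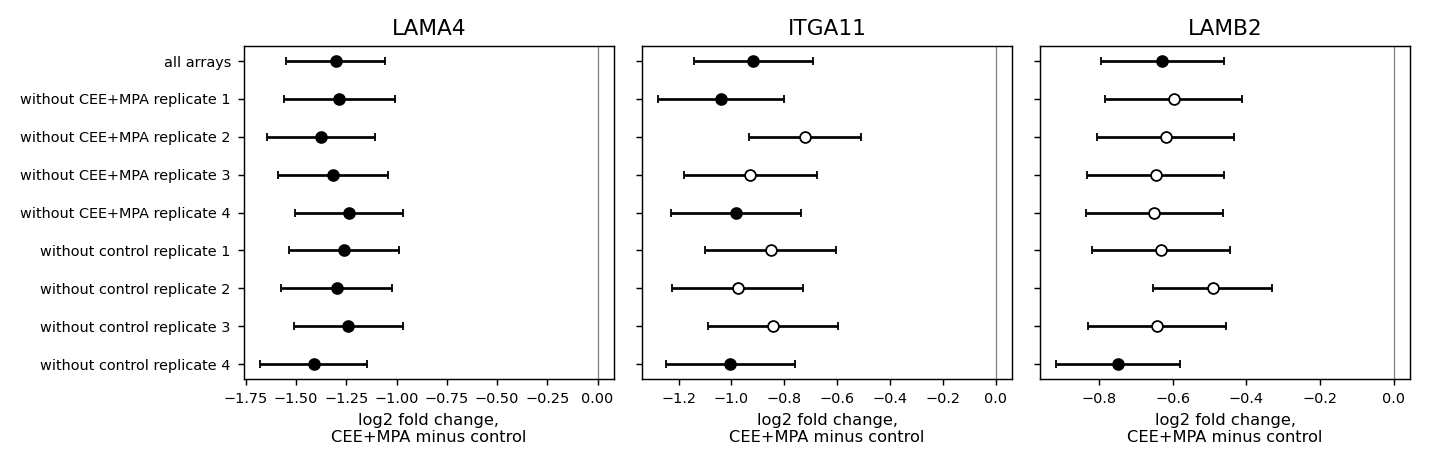
Log2 fold change of LAMA4, ITGA11 and LAMB2 in CEE+MPA minus control, with standard error (bars), over all arrays and without each of the 8 arrays in turn. Filled points have an adjusted p under 0.05 and open points do not. LAMA4 is filled in every row (-1.41 to -1.24), while LAMB2 is filled only over all arrays and without control replicate 4.

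Genes that work with the members were read in the same fit. Of the proteins that tie integrins to actin, 25 of 27 were tested, and 5 fell in CEE+MPA against control while none rose (7.69% of all tested genes were called). FLNA, the filamin that crosslinks actin, read 1659, 1210.2, 1357 and 1039 in CEE+MPA and 2316, 2755, 3098 and 2152 in control, with no overlap (-0.97 ± 0.17, limma adjusted p = 0.00641). LIMS2 and LIMS1, adaptors of the integrin-linked kinase, gave -0.73 ± 0.14 and -0.68 ± 0.15 (limma adjusted p = 0.0107 and 0.0186). The other 2 were TLN1, the talin that switches integrins on, and PXN, the adaptor paxillin. The median of the list was -0.35. In tibolone against CEE+MPA, 3 of the 25 were higher and none lower (7.35% of all tested genes were called, 3.98% as higher). These were FLNA (0.83 ± 0.17), LIMS2 (0.50 ± 0.14) and FERMT3, the kindlin of blood cells (1.09 ± 0.31), with limma adjusted p = 0.0173, 0.0491 and 0.0484. FERMT3 read 361, 229, 765 and 196 in tibolone and 169, 168, 117 and 147 in CEE+MPA. Its highest array was tibolone replicate 3, as for ITGB2, ITGB7 and ITGAD. The list's median was 0.33.

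Of the basement membrane proteins that laminins meet, 9 of 14 were tested and none was called in any comparison, with a median of -0.14 in CEE+MPA against control. Of the integrin ligands other than laminins, 10 of 15 were tested. SPP1, osteopontin, a ligand of integrins that is secreted into milk, was lower in CEE+MPA than in control (-4.13 ± 1.06, limma adjusted p = 0.0338), at 585, 206, 125 and 4422 in CEE+MPA and 10716, 12741, 7211 and 7964 in control, without overlap. CEE arrays, at 461, 2029, 897 and 146, were also all below control, with -3.94 ± 1.06 (limma unadjusted p = 0.00193, adjusted p = 0.184), and CEE+MPA against CEE gave -0.20 ± 1.06 (adjusted p = 0.985). NPNT, nephronectin, the ligand of the ITGA8 pair, was lower in tibolone than in CEE+MPA (-1.85 ± 0.42, limma adjusted p = 0.0243), with 1 tibolone array within the CEE+MPA range (459.5, 418, 447 and 2088 in tibolone and 2298, 2276, 2012 and 3111 in CEE+MPA).

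Of the catenins and their adherens junction partners, 12 of 15 were tested, and NECTIN3, a nectin that starts cell contacts, and LIMA1, which links catenins to actin, fell in CEE+MPA against control (-0.92 ± 0.24 and -0.53 ± 0.15, limma adjusted p = 0.0357 and 0.0435). Their list had a median of 0.02, with 7 genes above 0 and 5 below, and 2 of 12 called stand against 7.69% of all tested genes. Of the 6 desmosome genes tested of 11, none was called. Of the tight junction partners of claudins, 14 of 20 were tested, and 2 were called in CEE+MPA against control (7.69% of all tested genes) and 3 in tibolone against CEE+MPA (7.35%). CGNL1, a cingulin-like protein of junctions, rose in CEE+MPA against control (1.02 ± 0.24, limma adjusted p = 0.0263), at 1765, 1373, 1307 and 1496 in CEE+MPA and 548, 785, 786 and 795 in control, and MPDZ, a scaffold protein, fell (-0.55 ± 0.15, adjusted p = 0.0409). In tibolone against CEE+MPA, CGNL1 and PALS1, a polarity protein, were lower (-1.38 ± 0.24 and -0.80 ± 0.18) and MPDZ was higher (0.71 ± 0.15; limma adjusted p = 0.00997, 0.0251 and 0.0197). No partner gene of any of the 6 lists was called in the other 4 comparisons.

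Markers of the cells that carry these proteins differed between the same groups. All 7 tested smooth muscle markers (10 in the list) were called as lower in CEE+MPA than in control. Of all tested genes 4.96% were called as lower there and 2.74% as higher. The summed smooth muscle signal was 13634 to 22990 in tibolone, 7880 to 13375 in CEE+MPA, 16290 to 17005 in CEE and 16567 to 24101 in control. Of the fibroblast markers 5 of 9 were called as lower in CEE+MPA than in control, and 8 had log2 fold changes below 0. Their summed signals were 42809 to 47571 in tibolone, 29166 to 43241 in CEE+MPA, 30996 to 43431 in CEE and 46843 to 61409 in control. Of the endothelial markers 2 of 8 were called as lower, and all 8 had log2 fold changes below 0. Their summed signals were 7064 to 10584 in tibolone, 5070 to 6297 in CEE+MPA, 6101 to 7627 in CEE and 7249 to 10347 in control. Of the basal and myoepithelial markers 3 of 6 were called as lower, of the adipocyte markers 1 of 6 and of the myeloid markers 1 of 10. Below 0 lay 5, 5 and 9 of these. Among 13 luminal epithelial markers 2 were called as higher, and 7 lay above 0. With lists this short, 1 call says nothing particular about a list. Between tibolone and CEE+MPA, 6 of 7 smooth muscle, 4 of 9 fibroblast and 1 of 8 endothelial markers were called as higher in tibolone. So were 2 of 6 basal and myoepithelial, 1 of 6 adipocyte and 0 of 10 myeloid markers. Of 13 luminal epithelial markers 1 was called as higher and 1 as lower. In that comparison 3.98% of all tested genes were called as higher and 3.37% as lower. No tested marker of these lists had a signal of 0 on any array. The part of these cell types in the fall of LAMA4, LAMB2 and ITGA11 was not tested.

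Over the 16 arrays, 9 pairs of a member and a marker list were compared, and 5 passed after adjustment. Each relation is also given without the 2 most extreme arrays, within the spike-in sets and after subtraction of the group means. The p-values are for all arrays without regard to group. A group difference shared by a gene and a list can therefore give a pass by itself. No p was computed after group means were subtracted. Over the 16 arrays no member was set against other lists, so a pass does not single out a cell type. ITGA11 and the fibroblast list gave Pearson r = 0.854 (permutation p = 0.0001, adjusted 0.00077) and Spearman rho = 0.821 (permutation p = 0.00028, adjusted 0.00176). This r was 0.751 without the 2 most extreme arrays and 0.580 after group means were subtracted. Within the spike-in sets it was 0.872 (low, 6 arrays) and 0.884 (high, 10 arrays). LAMB2 and the smooth muscle list gave r = 0.791 (permutation p = 0.00014, adjusted 0.00077) and rho = 0.794 (permutation p = 0.0007, adjusted 0.00193), with r = 0.804 without 2 arrays, 0.786 and 0.861 in the low and high sets, and 0.350 after group means.

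LAMA4 and the endothelial list gave r = 0.746 (permutation p = 0.00102, adjusted 0.00224) and rho = 0.726 (permutation p = 0.00204, adjusted 0.00449), with r = 0.691 without 2 arrays, 0.779 and 0.765 in the sets, and 0.457 after group means. CDH5 and the endothelial list gave r = 0.760 (permutation p = 0.00074, adjusted 0.00203) and rho = 0.80 (permutation p = 0.00048, adjusted 0.00176), with r = 0.658 without 2 arrays, 0.695 and 0.770 in the sets, and 0.665 after group means. ITGB2 and the myeloid list gave r = 0.732 (permutation p = 0.00056, adjusted 0.00203) and rho = 0.80 (permutation p = 0.0004, adjusted 0.00176), with r = 0.743 without 2 arrays, 0.945 and 0.803 in the sets, and 0.578 after group means. ITGA8 with smooth muscle, CDH11 with fibroblast and CLDN23 with luminal epithelial markers did not pass, with r = 0.463, 0.414 and 0.397 (permutation p = 0.0721, 0.119 and 0.127) and rho = 0.365, 0.403 and 0.300 (permutation p = 0.164, 0.124 and 0.255). Without 2 arrays their r was 0.429, 0.462 and 0.334, and after group means 0.106, 0.0576 and 0.602. Within the low set it was 0.820, 0.523 and -0.396, and within the high set 0.535, 0.462 and 0.510, so CLDN23 changed sign between the sets.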

How the data were processed

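Mammary tissue RNA of 16 animals was hybridised to Affymetrix rhesus arrays, 1 per animal, and the replicate numbers of the 4 groups follow deposit order. The deposited values were linear intensity (signal) per probe set. Every array had the same mean after 2% was trimmed at each end, by the values themselves. GCOS and Affymetrix Expression Console are named in the submitters' processing notes, without versions, and the signal algorithm is "not given in the sources used here". Among 52865 probe sets, 99 were controls and 24969 had 1 annotated symbol, 361 several and 27535 none. Probe sets with a signal above the table's median (60.2) on at least 4 arrays were tested (28704, with 10452 genes), each gene by its probe set of highest mean log2(signal + 16). This offset understates changes of low signals.

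One limma model held 4 group means over all arrays, with the Benjamini-Hochberg adjustment for each comparison and a threshold of 0.05. Errors of fold changes are standard errors and those of signals SD. The number of arrays limits the precision. Partner and marker lists and the members were chosen with earlier results of these data known. Members named were those called in a comparison and, where fewer than 3 were, the 3 with the smallest p, plus a fixed panel; of the partners, the 3 with the smallest p among those called. Any other gene is named because its values had been seen. Alternatives tried were 2 normalizations, 2 filters, offsets of 1 and 64, models of only the groups compared, the mean of a gene's probe sets, spike-in sets as a block and separately, 2 marker covariates, a threshold of 0.10 and each array left out. Omission of 4 arrays with muscle signal, the interaction with spike-in set and the correlations were added after the data were seen. Correlations used 100000 permutations, two-sided. On simulated data, 54 to 69 of 100 probe sets changed by a log2 size of 1 were recovered over the 6 comparisons. Of 100 changed by 2, 89 to 97 were recovered, and 3 to 14 unchanged probe sets were called per comparison. The simulated noise was normal and independent between probe sets, without spike-in sets or muscle signal, and no other probe sets were changed. These rates need not hold for the real arrays. R 4.3.3, limma 3.58.1, Python 3.11.15, scipy 1.17.1 and matplotlib 3.10.9 were used.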

Additional observations from a re-analysis of the deposited data

Results flagged for a closer look

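Among 88 groups of 4 arrays (22 named or panel genes in 4 groups each), 3 had 1 array far from the other 3 by Dixon's criterion, which chance gives in about 1 of 20 groups. CDH5 was lowest in CEE+MPA replicate 1, at 331.7 against 448 to 471 on the other CEE+MPA arrays. ITGAM was highest in control replicate 1, at 843 against 60.4 to 99.5 on the other control arrays, and that array also had the highest skeletal muscle list mean of the study (2.99). LAMA4 was highest in CEE replicate 3, at 1681 against 1070.2 to 1136 on the other CEE arrays.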

How the results depend on the processing

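No paired analysis was possible because no animal received more than 1 treatment. For CEE+MPA against control the count of called members was 3, with 0 within the low spike-in set (where 0 of all 28704 probe sets passed, so this says nothing about the members), 5 within the high set (4.79% of all probe sets), 9 at a threshold of 0.10 (3713 probe sets) and 1 to 4 when 1 array was left out (1.21% to 6.9% of all probe sets). For tibolone against CEE+MPA it was 3, with 1 after median centring (7.43% of all probe sets), 0 without a filter (1.51%), 0 in a model of only these groups (0.749%), 0 with a block for spike-in set (2.56%), 1 within the high set (1.96%), 0 with the skeletal muscle covariate (2.81%), 0 without the 4 arrays of high skeletal muscle signal (0 of 28704), 6 at 0.10 (3753 probe sets) and 0 to 5 when 1 array was left out (0.728% to 11.6%). Over all arrays 6.34% of probe sets were called in either comparison. With 4 arrays a group, within-set values rest on 2 CEE+MPA and 2 control arrays, and all tibolone arrays lie in the high set, so no tibolone value exists for the low set. The count stayed at 0 under every alternative run in the other 4 comparisons. Alternatives were run for the 18 member fold changes named by rule, and none reversed. The 6 called ones kept the call in 63 of 127 settings and lost it in 64, and the 12 others were not called in any of 254. LAMA4 in CEE+MPA against control passed in 20 of 22 settings, ITGA11 in 13 of 21 and LAMB2 in 9 of 22; in tibolone against CEE+MPA LAMB2 passed in 8 of 21, LAMA1 in 7 of 20 and LAMA4 in 6 of 21. The causes were not tested. The stricter filter left out ITGA11 and LAMA1. The effects of CEE and of CEE+MPA were also compared between the spike-in sets by an interaction in limma: 0 of 28704 probe sets passed for either, with 1436 and 1697 at an unadjusted p under 0.05.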
